A study of Mus musculus with 6 samples.

Results

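The genes described here were nearly silent in control dermal fibroblasts and expressed in fibroblasts with a constitutively active Nrf2. A gene was taken as a member when its summed expected count lay below 1 CPM (its expected count scaled to the library total) in all 3 ctrl libraries and at or above 3 CPM in all 3 caNrf2 libraries. Of 43629 gene IDs, 30307 lay below the ctrl limit in every ctrl library and 41 met both limits. Of these 41, 8 were set aside by symbol, 3 alpha-class glutathione S-transferases (Gsta1, Gsta2 and Gsta3), 3 interleukin or interleukin receptor genes (Il7, Il11 and Il12rb1) and 2 aldo-keto reductases (Akr1c14 and Akr1c18), which left 33 members. The same limits applied in the opposite direction, silent in caNrf2 and expressed in ctrl, were met by 0 genes. Because the members were picked on the difference between the 2 groups, that difference is given below as a description and without a test.

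RNA was sequenced from primary fibroblasts of newborn mouse skin, cultured for 6 days to passage 1, from mice of a mixed background (50% C57Bl/6, 50% FVB/N). All 6 libraries came from animals with Col1a2Cre, a Cre recombinase under a promoter of the collagen gene Col1a2 that is used to target fibroblasts. The 3 ctrl libraries carried Cre alone (Col1a2Cre-wt), and the 3 caNrf2 libraries carried Cre together with the constitutively active Nrf2 (caNrf2). The series' design text gives 3 mice per group, without saying which mouse gave which library.

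NRF2, the product of Nfe2l2, is a transcription factor that is normally held in the cytoplasm by KEAP1 and degraded. When it escapes this control it enters the nucleus, pairs with a small MAF protein and binds the antioxidant response element (ARE), a short DNA motif found near genes of glutathione synthesis, detoxification and NADPH supply. Many genes of the present module are better known from elsewhere, such as brain, retina, muscle, testis, cartilage, fetal liver or placenta.

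Library totals ran from 30168400 to 45164208 expected counts, so that 1 read was worth 0.0221 to 0.0331 CPM. Nfe2l2, the gene of NRF2, measured 116, 102 and 113 CPM in ctrl replicates 1 to 3 and 352, 424 and 357 CPM in the caNrf2 replicates. The part of RNA from the introduced caNrf2 in these values was not tested. All 16 genes of a list of classical NRF2 targets were higher in caNrf2, with a median log2 fold change of 2.88 (edgeR quasi-likelihood test, Benjamini-Hochberg adjusted p below 0.05, here termed called). Over all 15341 genes tested, 21.5% were called: 12.5% with higher and 9.03% with lower levels in the caNrf2 group. Among the NRF2 targets, Txnrd1, a thioredoxin reductase, was the most abundant and rose from 186 ± 14.2 to 972 ± 66.4 CPM (SD, n = 3 each; adjusted p = 8.95e-07). G6pdx, the entry enzyme of the pentose phosphate pathway, rose least (log2 fold change 0.35, SE 0.08, adjusted p = 0.0149), and was no longer called without caNrf2 replicate 2, ctrl replicate 1 or ctrl replicate 3 (adjusted p 0.0502 to 0.0674).

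Together the 33 members summed to 9.74, 9.03 and 9.62 CPM in the ctrl libraries and to 440, 458 and 379 CPM in the caNrf2 libraries. They were not at 0 in ctrl: 32 of them had at least 1 count there and 26 had at least 10 counts over the 3 ctrl libraries, the most being 84 for Lix1. Wdr64 was the exception, with 0 counts in every ctrl library. The median of the members' mean levels was 0.249 CPM for ctrl and 7.03 CPM for caNrf2, and only 10 members reached a mean of 10 CPM. Scaled by transcript length, their mean levels in caNrf2 ran from 0.653 TPM for Abca13 to 47.4 TPM for Map7d2, with a median of 6.4 TPM. By normal site of expression or function, 9 members are best known from the nervous system or retina, 5 from skeletal, gut or endocrine signalling, 4 from detoxification or transport, 2 each from muscle and limb and from fetal liver and placenta, and 1 each from testis and from the skin barrier. A further 7 encode less studied proteins, and 2 are antisense transcripts.

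**Figure D1:**
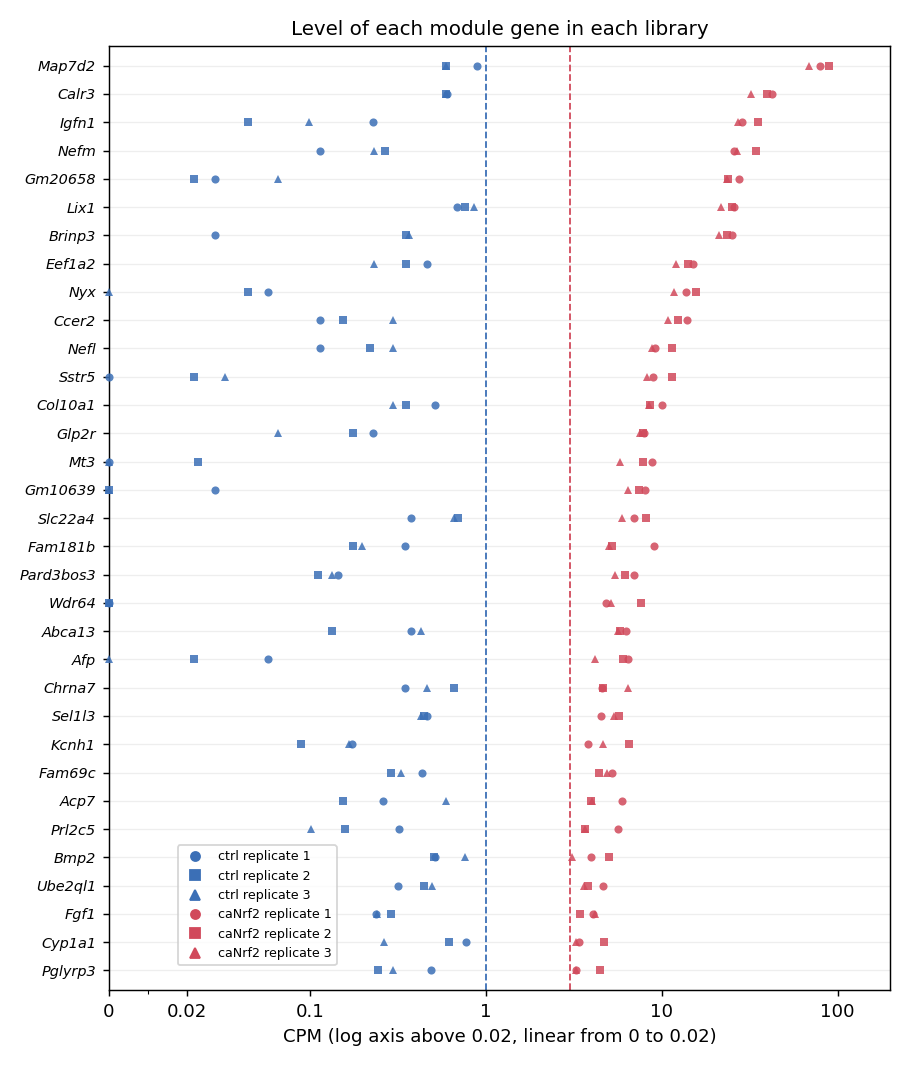
CPM of the 33 module genes in each library (x axis, logarithmic above 0.02 and linear from 0 to 0.02), with genes ordered by their mean in caNrf2; blue symbols are the 3 ctrl libraries, red symbols the 3 caNrf2 libraries, and the dashed lines are the limits of 1 and 3 CPM used to choose the genes. The gap between the colours follows from those limits; the spread of the red symbols is narrow for Glp2r and wide for Fam181b.

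Map7d2 (ENSMUSG00000041020, chromosome X, 159414572 to 159498757, GRCm38) was the most abundant member by TPM. It encodes a microtubule-associated protein of the MAP7 family, which recruits kinesin-1 motors to microtubules and is prominent in brain. Its level was 0.893, 0.598 and 0.597 CPM in the ctrl libraries and 79.1, 89.7 and 68.5 CPM in the caNrf2 libraries. The pooled ratio of caNrf2 to ctrl was 115 (95% exact interval 91.5 to 146, which covers counting error only, as do the intervals that follow). The lowest of the caNrf2 libraries was replicate 3, as for most members.

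The deposited tables give estimates per transcript, and for Map7d2 these placed most of the RNA at an internal start. The transcript ENSMUST00000043151 (13 exons) carried 92.8%, 92.1% and 91.1% of the gene's expected counts in caNrf2 replicates 1 to 3. It begins 44553 bases downstream of ENSMUST00000112471 (17 exons), the transcript of the upstream start, which carried 6.29%, 6.74% and 8.44%. The RefSeq sequences before these starts (GRCm38.p6, plus strand, 250 bases each) are shown because they differ in CG pairs, which are in capitals: 32 before the upstream start (chrX:159414322-159414571) and 0 before the internal start that carried most of the counts (chrX:159458875-159459124).
Map7d2 upstream start: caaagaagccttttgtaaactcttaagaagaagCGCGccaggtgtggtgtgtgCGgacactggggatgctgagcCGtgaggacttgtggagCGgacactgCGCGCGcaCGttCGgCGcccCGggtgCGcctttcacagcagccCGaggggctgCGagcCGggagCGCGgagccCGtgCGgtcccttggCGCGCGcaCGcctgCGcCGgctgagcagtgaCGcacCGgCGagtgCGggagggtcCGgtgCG
Map7d2 internal start: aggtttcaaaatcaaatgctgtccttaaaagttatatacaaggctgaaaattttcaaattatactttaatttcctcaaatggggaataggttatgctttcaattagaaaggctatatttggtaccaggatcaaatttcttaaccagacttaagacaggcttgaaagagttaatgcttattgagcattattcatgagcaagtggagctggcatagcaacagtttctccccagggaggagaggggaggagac

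None of the other 3 MAP7 genes was called higher. Map7d1, the abundant paralogue in these cells, measured 160 ± 7.06 in ctrl against 183 ± 4.6 CPM in caNrf2 (SD, n = 3 each; log2 fold change 0.21, SE 0.08, edgeR adjusted p = 0.0893). Map7 stayed near 1 CPM in both groups (log2 fold change 0.34, SE 0.31, edgeR adjusted p = 0.466). Map7d3 fell, from 6.14 ± 0.145 to 3.87 ± 0.513 CPM (log2 fold change -0.65, SE 0.14, edgeR adjusted p = 0.0108).

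**Figure D2:**
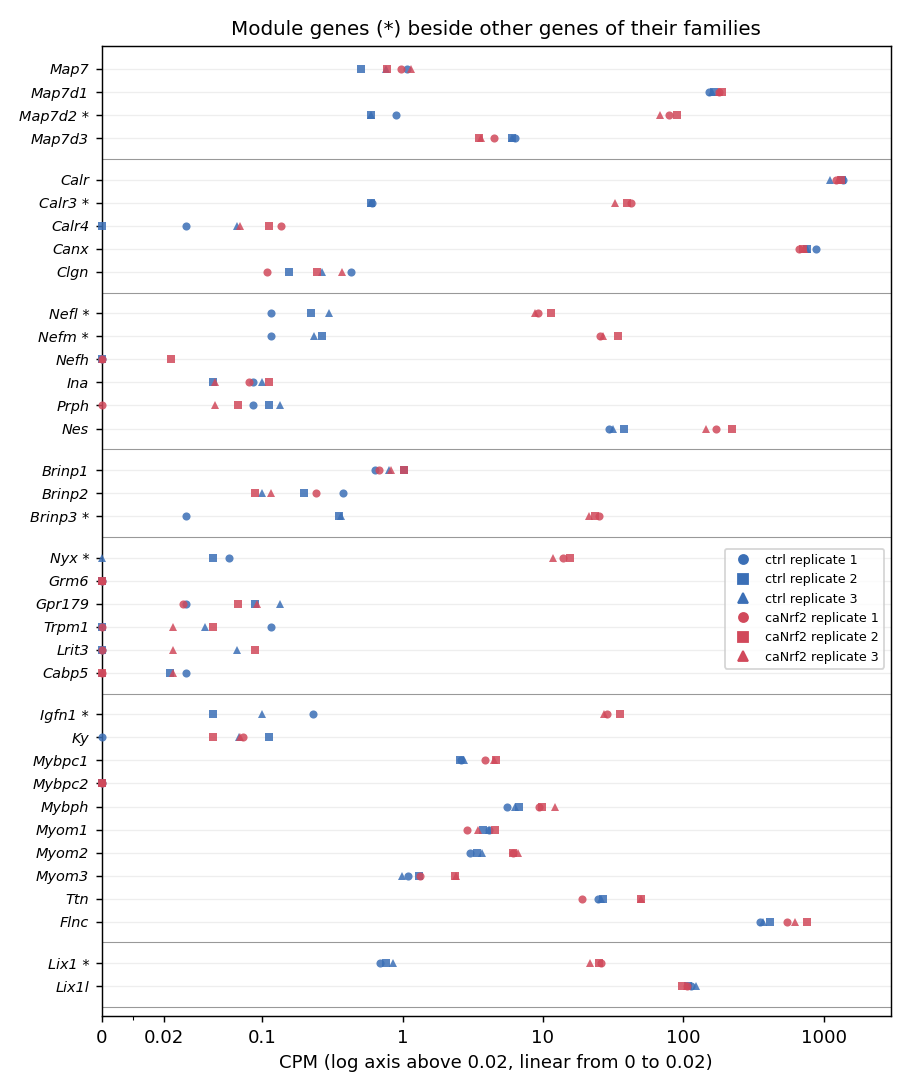
CPM in each library (x axis, logarithmic above 0.02 and linear from 0 to 0.02) of module genes, marked with an asterisk, and of other genes of their families, one family per block; blue symbols are ctrl and red symbols caNrf2 libraries. Grm6 and Mybpc2 lie at 0 in all 6 libraries, while Calr, Canx, Map7d1 and Lix1l are abundant in both groups.

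Nefm and Nefl encode the medium and light neurofilament subunits, the intermediate filaments that set the calibre of axons, and they lie side by side on chromosome 14. Nefm (ENSMUSG00000022054, 68082590 to 68124846) measured 0.115, 0.266 and 0.232 CPM in ctrl and 25.7, 34.3 and 26.8 CPM in caNrf2, a ratio of 140 (92.9 to 220). Nefl measured 0.115, 0.221 and 0.298 CPM in ctrl and 9.21, 11.5 and 8.84 CPM in caNrf2, a ratio of 47.4 (31.4 to 75). For both genes caNrf2 replicate 2 was the highest. Their annotated exons share 1108 bases, but through a second Nefm transcript that carried at most 0.253% of the Nefm counts in caNrf2. Nefm stood at 16 TPM and Nefl at 5.36 TPM in caNrf2.

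Of the other 4 genes of the filament set, 3 stayed below 1 CPM in all libraries and 1 rose. Nefh, the heavy neurofilament subunit, had 1 count in the 6 libraries (0.0223 CPM in caNrf2 replicate 2). Internexin (Ina) and peripherin (Prph) had means of at most 0.11 CPM in either group and were not tested. Nes, encoding nestin, an intermediate filament of progenitor cells, was expressed in ctrl and rose from 33.1 ± 4.41 to 180 ± 39.5 CPM (SD, n = 3 each; log2 fold change 2.46, SE 0.17, edgeR adjusted p = 2.21e-05).

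Brinp3 (ENSMUSG00000035131, chromosome 1, 146494760 to 146902472) belongs to a family of proteins induced in neurons by BMP and retinoic acid and linked to arrest of the cell cycle. Its level was 0.0288, 0.354 and 0.365 CPM in ctrl and 25, 23.4 and 21.2 CPM in caNrf2, a ratio of 90.8 (62.7 to 137). Brinp1 measured 0.816 ± 0.193 in ctrl against 0.839 ± 0.171 CPM in caNrf2 (log2 fold change 0.05, SE 0.28, edgeR adjusted p = 0.911), and Brinp2 was too low to be tested.

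Nyx (ENSMUSG00000051228, chromosome X, 13466110 to 13489313) encodes nyctalopin, a leucine-rich repeat protein on the dendrites of retinal ON bipolar cells, whose loss causes congenital stationary night blindness. It measured 0.0576, 0.0443 and 0 CPM in ctrl, 4 counts in all, and 13.8, 15.7 and 11.8 CPM in caNrf2. The ratio was 378 (148 to 1390), so counting error alone left the size of the increase uncertain over that interval. The genes that act with nyctalopin in the ON bipolar synapse stayed low: Grm6, the glutamate receptor of that synapse, had 0 counts in all 6 libraries, and Gpr179, Trpm1, Lrit3 and Cabp5 were below 1 CPM in every library. Of 10 retina markers, all were below 1 CPM in all 6 libraries and 4 were at 0 throughout (Pde6b, Nrl, Grm6 and Pcp2).

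Mt3, Eef1a2, Chrna7 and Kcnh1 complete the neural group. Mt3, a brain metallothionein known as growth inhibitory factor, had 1 count in the 3 ctrl libraries and reached 8.83, 7.82 and 5.77 CPM in caNrf2. Its ratio of 815 (146 to 32211) was the highest of the module and the least certain. With 31.1 TPM in caNrf2, Mt3 was behind only Map7d2 and Calr3 among the members.

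Eef1a2 is the form of translation elongation factor 1 alpha used by neurons and striated muscle. It measured 0.461, 0.354 and 0.232 CPM in ctrl and 15.1, 14.2 and 12 CPM in caNrf2, a ratio of 38.6 (28.1 to 54.5). The ubiquitous form, Eef1a1, stood at 11072 ± 351 in ctrl against 9807 ± 473 CPM in caNrf2 (SD, n = 3 each; edgeR adjusted p = 0.199). Chrna7 encodes the alpha 7 subunit of the nicotinic acetylcholine receptor and went from 0.346, 0.664 and 0.464 CPM to 4.56, 4.67 and 6.47 CPM. It was 1 of only 2 members that were highest in caNrf2 replicate 3. Kcnh1, a voltage-gated potassium channel, lay between 3.83 and 6.52 CPM in caNrf2.

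Other genes of these families were named after their values had been seen. The metallothionein gene Mt1, 24.9 kb from Mt3, rose from 59 ± 8.47 to 104 ± 20.3 CPM (log2 fold change 0.83, SE 0.15, edgeR adjusted p = 0.00507), while Mt2 was not called (0.26, SE 0.23, adjusted p = 0.453) and Mt4 had 1 count in all. Of 7 other nicotinic receptor subunits, 3 were tested and only the muscle subunit Chrna1 was called, rising from 5.74 ± 0.494 to 9.8 ± 1.47 CPM (log2 fold change 0.79, SE 0.14, edgeR adjusted p = 0.00537).

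Igfn1 (ENSMUSG00000051985, chromosome 1, 135953578 to 136006342) encodes an immunoglobulin-like and fibronectin domain protein of the skeletal muscle Z-disc. Its level was 0.23, 0.0443 and 0.0994 CPM in ctrl and 28.7, 35.5 and 27.3 CPM in caNrf2, a ratio of 260 (152 to 488). The full-length transcript of 27 exons carried 57.3%, 71.3% and 71.4% of its counts in caNrf2 replicates 1 to 3. Of 10 other sarcomeric genes with immunoglobulin domains, 2 stayed below 1 CPM in all 6 libraries, Ky and Mybpc2, the latter at 0. The 8 tested were already expressed in ctrl, and 5 of them were called higher. Among these were Mybpc1, Mybph, Myom2 and Flnc, with log2 fold changes of 0.74 to 0.92 and adjusted p from 0.00199 to 0.00898. The muscle titin gene Ttn (0.64, SE 0.3, adjusted p = 0.169), Myom1 (-0.12, adjusted p = 0.694) and Myom3 (0.85, adjusted p = 0.0577) were not called. Ttn was called only without caNrf2 replicate 1 (adjusted p = 0.000263), and Myom3 without that library (0.0138), by DESeq2 (0.042) and with no filter on low counts (0.0341). In caNrf2 replicate 1 Ttn measured 19 CPM against 49.8 and 50 in the other two.

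Markers of skeletal muscle were higher in caNrf2. Of 14 such markers, all tested and none at 0, 10 were called, each higher in caNrf2, with a median log2 fold change of 0.75 and a summed level of 168 to 179 CPM in ctrl and 230 to 321 CPM in caNrf2. The embryonic myosin gene Myh3 was the most abundant and rose from 47.6 ± 0.291 to 74.6 ± 12.9 CPM (log2 fold change 0.67, SE 0.12, edgeR adjusted p = 0.005). In caNrf2 replicates 1 to 3 the muscle markers summed to 230, 309 and 321 CPM, and Igfn1 measured 28.7, 35.5 and 27.3 CPM. In bulk libraries a larger share of muscle cells and more RNA per cell cannot be told apart. The part of either in the Igfn1 values was not tested.

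Lix1 (ENSMUSG00000047786, chromosome 17, 17402672 to 17459387), named for its expression in the early limb bud, measured 0.689, 0.763 and 0.859 CPM in ctrl and 25.8, 25.2 and 21.8 CPM in caNrf2. Its ratio of 31.7 (25.5 to 39.9) rested on 84 ctrl counts. The related gene Lix1l was expressed in both groups at 115 ± 8.22 and 103 ± 4.85 CPM (SD, n = 3 each; log2 fold change -0.14, SE 0.08, edgeR adjusted p = 0.242). The RefSeq sequence before the Lix1 start (chr17:17402436-17402685, GRCm38.p6, plus strand, 250 bases) holds the ARE core TGACNNNGC, in capitals, beginning 34 bases before the start. That start lies 14 bases downstream of the first base of the leading transcript, which carried at least 98.8% of the counts in each caNrf2 library.
Lix1: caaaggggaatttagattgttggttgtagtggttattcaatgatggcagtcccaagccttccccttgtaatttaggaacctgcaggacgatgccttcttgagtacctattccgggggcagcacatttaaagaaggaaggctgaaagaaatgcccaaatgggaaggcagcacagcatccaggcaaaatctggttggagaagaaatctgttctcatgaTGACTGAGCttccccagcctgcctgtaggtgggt

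Calr3 (ENSMUSG00000019732, chromosome 8, 72424176 to 72443870) encodes calreticulin 3, a chaperone of the endoplasmic reticulum that is normally restricted to testis and is needed for sperm function. Its ctrl values were close together, at 0.605, 0.598 and 0.597 CPM, and its caNrf2 values were 42.5, 39.9 and 32.4 CPM, a ratio of 63.5 (49.8 to 82.2). The leading transcript carried 70.9%, 75.8% and 79.6% of the counts in caNrf2 replicates 1 to 3. A second transcript, which begins 8714 bases downstream of it, carried 29.1%, 24.2% and 20.4%. The general chaperones of this family were abundant and not called: Calr at 1274 ± 146 in ctrl against 1269 ± 47.5 CPM in caNrf2 (SD, n = 3 each; edgeR adjusted p = 0.95) and Canx at 802 ± 71.4 and 706 ± 34.6 CPM (edgeR adjusted p = 0.221). Clgn, the testis form of calnexin, stayed at 0.284 ± 0.139 and 0.24 ± 0.13 CPM (edgeR adjusted p = 0.852).

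Germ cell markers gave no parallel to Calr3. Of 12 such genes, 6 had 0 counts in all 6 libraries (Tnp1, Prm1, Prm2, Pgk2, Ldhc and Spata19), and the list summed to 3.51 to 4.98 CPM in ctrl and 4.78 to 5.89 CPM in caNrf2. Ddx4, a germ cell helicase gene and the most abundant of them, was the only one called (log2 fold change 0.8, SE 0.23, edgeR adjusted p = 0.0367). That call was lost in 5 of the 6 fits that left out a library (adjusted p 0.0679 to 0.0925), all but the fit without ctrl replicate 1.

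The group of receptors, ligands and matrix genes held Sstr5, Glp2r, Col10a1, Bmp2 and Fgf1. Sstr5, a receptor through which somatostatin restrains hormone secretion, had 2 ctrl counts and measured 8.94, 11.4 and 8.22 CPM in caNrf2, a ratio of 527 (145 to 4353). Glp2r, the receptor of the gut growth hormone GLP-2, was the steadiest member, at 7.91, 7.81 and 7.55 CPM in caNrf2 against 0.23, 0.177 and 0.0663 CPM in ctrl. Col10a1, the collagen X chain made by hypertrophic chondrocytes, went from 0.518, 0.354 and 0.298 CPM to 9.99, 8.59 and 8.45 CPM, a ratio of 22.9 (16.9 to 31.9). All 3 lay at or below 0.518 CPM in every ctrl library.

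Bmp2, a bone morphogenetic protein, lay at 0.518, 0.509 and 0.762 CPM in ctrl and 3.97, 5.01 and 3.1 CPM in caNrf2, a ratio of 6.95 (5.35 to 9.16). Fgf1, acidic fibroblast growth factor, went from 0.238, 0.288 and 0.241 CPM to 4.08, 3.45 and 4.18 CPM, a ratio of 14.8 (10.1 to 22.3). Relatives of both were named after their values had been seen. Bmp6 rose from 3.31 ± 0.734 to 10.5 ± 0.717 CPM (log2 fold change 1.67, SE 0.17, edgeR adjusted p = 0.000253), and Fgf7, keratinocyte growth factor, from 50.5 ± 9.09 to 77.9 ± 6.73 CPM (0.64, SE 0.13, edgeR adjusted p = 0.00983). Another 3 calls were lost in some fits: Bmp4 (1.1, adjusted p = 0.0268) without caNrf2 replicate 1 or 2 or ctrl replicate 2 (0.0544 to 0.0802), Bmp7 (1.03, adjusted p = 0.0382) when any library other than ctrl replicate 1 was left out (0.0712 to 0.122), and Fgf2 (-0.73, adjusted p = 0.0406) when any library other than caNrf2 replicate 2 was left out (0.0688 to 0.114) and also with the replicate number as a block (0.0605). Col8a2, a short-chain collagen like Col10a1, fell from 3.88 ± 0.55 to 1.8 ± 0.284 CPM (-1.1, SE 0.19, edgeR adjusted p = 0.00463), and Col8a1 was not called (0.12, SE 0.13, adjusted p = 0.537).

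Afp and Prl2c5 are normally products of fetal liver or yolk sac and of placenta. Afp, alpha-fetoprotein, had 3 ctrl counts and reached 6.45, 6.01 and 4.18 CPM in caNrf2, a ratio of 202 (68.8 to 982). Its neighbour and relative Alb, the albumin gene, stayed at 0.37 ± 0.12 and 0.617 ± 0.136 CPM (SD, n = 3 each; log2 fold change 0.76, SE 0.33, edgeR adjusted p = 0.142). The 6 liver and gut epithelium markers were all below 1 CPM in every library, with Ttr, Fabp1 and Cdx2 at 0 throughout.

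Prl2c5 belongs to the proliferin group of placental prolactin-like hormones and measured 0.32, 0.158 and 0.102 CPM in ctrl and 5.62, 3.67 and 3.67 CPM in caNrf2. Prl2c2 and Prl2c3, 2 close relatives named after their values had been seen, were far more abundant: Prl2c2 rose from 2.65 ± 1.68 to 140 ± 43.8 CPM (log2 fold change 5.76, SE 0.39, edgeR adjusted p = 1.88e-05) and Prl2c3 from 4.04 ± 1.95 to 58.1 ± 15.5 CPM (3.86, SE 0.31, edgeR adjusted p = 4.85e-05). These genes are near-identical in sequence and the authors' estimator divides shared reads among them, so the split between the 3 is uncertain. All 3 were highest in caNrf2 replicate 1.

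Cyp1a1, Slc22a4, Abca13 and Gm10639 were grouped under detoxification and transport. Gm10639 lies within the alpha-class glutathione S-transferase cluster on chromosome 9, 25.5 kb from Gsta2 and 47.2 kb from Gsta1, and shares the doubt about divided reads. It had 1 ctrl count and 8.02, 7.45 and 6.47 CPM in caNrf2, a ratio of 801 (143 to 31691). Slc22a4, the transporter of the antioxidant ergothioneine, went from 0.374, 0.692 and 0.664 CPM to 6.99, 8.14 and 5.96 CPM, while its chromosomal neighbours and relatives Slc22a5 (log2 fold change 0.13, edgeR adjusted p = 0.484) and Slc22a21 (0.01, adjusted p = 0.957) were not called.

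Cyp1a1, the cytochrome P450 that is the classical target of the aryl hydrocarbon receptor, had the lowest ratio of the module, 6.65 (5.11 to 8.8). Its levels were 0.777, 0.62 and 0.265 CPM in ctrl and 3.38, 4.7 and 3.25 CPM in caNrf2. The receptor gene Ahr rose from 7.86 ± 1.52 to 22.1 ± 1.42 CPM (SD, n = 3 each; log2 fold change 1.51, SE 0.13, edgeR adjusted p = 9.46e-05). Other targets of that receptor, also named after their values had been seen, were not called: Cyp1b1 (0.27, SE 0.12, adjusted p = 0.138), Tiparp (0.05, adjusted p = 0.663) and Ahrr (-0.35, adjusted p = 0.157).

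Pglyrp3, a peptidoglycan-binding antibacterial protein of skin and mucosa, is the one member best known from skin. It measured 0.49, 0.244 and 0.298 CPM in ctrl and 3.24, 4.47 and 3.24 CPM in caNrf2. Pglyrp1, Pglyrp2 and Pglyrp4 had between 1 and 8 counts each over the 6 libraries. Keratinocyte markers were present in both groups, summing to 143 to 239 CPM in ctrl and 211 to 336 CPM in caNrf2 with none of the 8 at 0. Krt5 was the most abundant of them and was not called (log2 fold change 0.64, SE 0.23, edgeR adjusted p = 0.0791), though it was without ctrl replicate 1 or caNrf2 replicate 1 (adjusted p = 0.0313 for each) and with no filter on low counts (0.0172). Of the 8 markers, 2 were called higher, and 0 without caNrf2 replicate 2 or 3 or without ctrl replicate 2 or 3; their part in the Pglyrp3 values was not tested.

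Less studied proteins made up 7 members: Ccer2, Fam181b, Wdr64, Acp7, Fam69c, Ube2ql1 and Sel1l3. Ccer2, a coiled-coil glutamate-rich protein, measured 0.115, 0.155 and 0.298 CPM in ctrl and 13.9, 12.4 and 10.8 CPM in caNrf2, and at 23.3 TPM it was among the more abundant members. Part of its exons, 311 bases, overlap the oppositely oriented Nfkbib, which was not called (log2 fold change 0.46, SE 0.16, edgeR adjusted p = 0.069); without a known strand setting such shared reads cannot be assigned. Wdr64, a WD-repeat protein, reached 4.83, 7.68 and 5.14 CPM in caNrf2. Set against a floor of 3 counts over the ctrl group this was 219-fold, a value that depends on the floor chosen. The lower bound of the exact interval of the ratio was 177. Fam181b varied most, with 8.99 CPM in caNrf2 replicate 1 against 5.19 and 5.01 CPM in the other two. Acp7, a purple acid phosphatase relative, measured 5.94, 3.98 and 4.02 CPM in caNrf2 and also stood highest in replicate 1. The remaining 3 had mean levels of 4.02 CPM (Ube2ql1), 4.84 CPM (Fam69c) and 5.21 CPM (Sel1l3) in caNrf2.

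Gm20658 (ENSMUSG00000093765, chromosome 12, 116102769 to 116138648) is an antisense RNA that overlaps Vipr2, the gene of a receptor for vasoactive intestinal peptide. It had 4 ctrl counts and measured 27.7, 23.8 and 23.5 CPM in caNrf2, a ratio of 683 (267 to 2509). At 26.8 TPM it was the most abundant noncoding member. Vipr2 on the other strand stayed at 1.83 ± 0.376 in ctrl against 2.03 ± 0.539 CPM in caNrf2 (SD, n = 3 each; log2 fold change 0.18, SE 0.26, edgeR adjusted p = 0.655). The 2 genes share 0 exon bases, so their counts do not draw on the same annotated exons.

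Pard3bos3, antisense to the polarity gene Pard3b, measured 0.144, 0.111 and 0.133 CPM in ctrl and 6.97, 6.21 and 5.44 CPM in caNrf2, a ratio of 48.5 (28.7 to 89.1). Here the overlapping gene moved the other way. Pard3b fell from 15.2 ± 2.81 to 5.74 ± 0.768 CPM (SD, n = 3 each; log2 fold change -1.38, SE 0.16, edgeR adjusted p = 0.000436), and these genes also share 0 exon bases. Of 21 genes that overlap a member, 11 were tested and 2 were called, both lower; the other was Gas7, opposite Glp2r, with a log2 fold change of -0.57 (SE 0.11, edgeR adjusted p = 0.00692) and 66 shared exon bases.

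Of 56 relatives of members named after their values had been seen, 35 were tested, 9 were called higher and 2 lower; of the 29 other genes of the family lists, 17 were tested, 6 were called higher and 1 lower. The medians of their log2 fold changes were 0.26 and 0.34, and 25 of the former and 13 of the latter were below 1 CPM in all 6 libraries. Of the 6 family genes called higher, 5 were from the sarcomeric list. Over all 15341 genes tested, 12.5% were called higher and 9.03% lower. Because the 56 relatives were picked with their values known, their counts are a description only.

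Of the 33 members, 15 have 1 annotated transcript, so that its share is fixed. Of the 18 with several, 10 had the same leading transcript at 80% or more of the counts in each caNrf2 library. No such count was made for genes outside the module. Kcnh1 and Sstr5 stood out for their spread: the leading Kcnh1 transcript carried 43.2% in caNrf2 replicate 1 and 100% in the other two, and the leading Sstr5 transcript 85%, 72.4% and 40.2%. The 2 Sstr5 transcripts start at the same base, so this spread does not concern where transcription begins. Shares per transcript are the authors' estimates and carry no error of their own here.

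**Figure D3:**
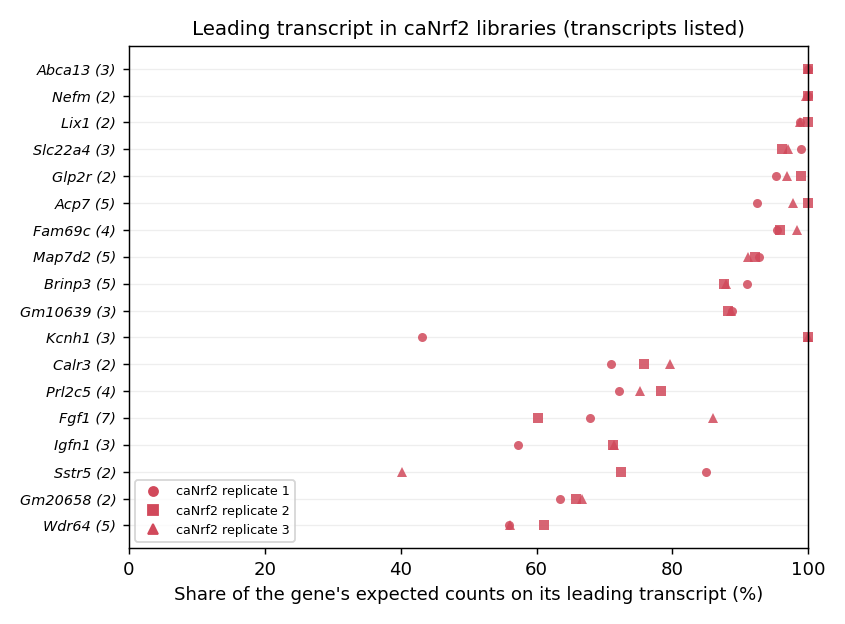
Share of a gene's expected counts (x axis, percent) on its leading transcript in each caNrf2 library, for the 18 members with more than 1 transcript; the number of transcripts in the deposited tables is in brackets. Shares lie close together for Map7d2 and Brinp3 and are widely spread for Kcnh1, Sstr5 and Fgf1.

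The spread of the members between caNrf2 libraries was described by the coefficient of variation (CV). Their median CV was 14.1%, from 2.38% for Glp2r to 35.2% for Fam181b, against a median of 7.56% over all 11350 genes at or above 3 CPM in every caNrf2 library; most of those genes are far more abundant, and abundance was not matched. Of the 33 members, 24 were lowest in caNrf2 replicate 3, 18 were highest in replicate 1, 13 in replicate 2 and 2 in replicate 3. Of the 11350 genes, 25.5% were lowest in replicate 3. With TMM-scaled library sizes the number lowest in replicate 3 was 25. The rule used these libraries, so the counts are a description.

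Sequences at the starts were compared with the motif of NRF2. RefSeq promoters (GRCm38.p6, from 250 bases before to 50 after a start) were matched for 23 of the 33 members, giving 27 promoters. Only 20 members had a promoter whose start lay within 100 bases of the leading transcript start, so some promoters belong to other starts. The ARE core TGACNNNGC, searched on both strands, was present in 4 of the 27 (14.8%) and in 12.4% of all 32851 promoters of the table. In a list of NRF2 targets, 7 of 17 promoters (41.2%) held it. With the shorter core TGACNNNG the shares were 33.3% of member promoters, 47.1% of those of the NRF2 targets and 41% of all.

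The 4 member promoters with the core were those of Lix1, shown above, Chrna7, Ube2ql1 and the downstream start of Calr3. The matches are printed with 10 flanking bases on each side where the window allows, in the direction of transcription, next to 2 NRF2 targets for comparison; capitals mark the core, which on all but Lix1 lies on the reverse strand and so reads GCNNNGTCA. The match begins 73 bases before the start in Chrna7 (chr7:63212581-63212609, minus strand) and 186 bases before the second start in Calr3 (chr8:72435324-72435352, minus strand). In Ube2ql1 it begins 36 bases after the start (chr13:69739848-69739872, minus strand).
Chrna7: aggcgggggcGCGCTGTCAcgtgtggggg
Calr3 downstream start: tggtgtacatGCAGAGTCAgagggcaaga
Ube2ql1: agccgcctctGCAATGTCAgcagcc
Gclm: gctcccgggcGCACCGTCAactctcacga
Srxn1: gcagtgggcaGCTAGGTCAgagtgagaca

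Glutamate-cysteine ligase modifier (Gclm, chr3:122245413-122245441, plus strand) and sulfiredoxin (Srxn1, chr2:152105542-152105570, plus strand) are antioxidant genes whose core lies 134 bases before and 29 bases after the start. The upstream Calr3 promoter, that of the leading transcript, does not hold the core. The further motifs were searched on both strands. The AP-1 site TGACTCA, whose letters overlap the core when followed by GC, was in 0 of the 27 member promoters and in 5.2% of all. The cyclic AMP response element TGACGTCA was in 1 (Ccer2), against 1.79% of all. TATAAA was in 5 (18.5%), against 13.6% of all. These 5 include the Gm20658 promoter, whose start lies 26935 bases downstream of that of the leading transcript. A match is only a run of letters in this window, and distal elements were not examined.

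Genes beside the members were called about as often as all genes tested. Within 100 kb of a member lay 149 genes that neither overlap it, nor belong to the module, nor were set aside from it by symbol, 74 of them tested; 11 were called higher and 5 lower, which is 21.6% beside the background of 21.5%. Gsta1 and Gsta2, beside Gm10639, met both limits of the module and had been set aside, so they were chosen on this contrast (log2 fold change 9.45 and 9.25); with them counted, as added after seeing the data, 13 were higher and 5 lower, 23.7% of 76. The median log2 fold change of the 74 was 0.08, against 0 over all genes tested. Of the 26 members with a tested neighbour, 12 had a called one. With 1 library left out the number of called neighbours was 8 to 13, being 8 without caNrf2 replicate 2 and 10 without ctrl replicate 1 or ctrl replicate 3.

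Of the 16 called neighbours, the 6 of smallest adjusted p were of mixed direction. Gsta4, a glutathione S-transferase 80.6 kb from Gm10639 and itself on the list of NRF2 targets, rose from 14.9 ± 0.929 to 353 ± 35.4 CPM (SD, n = 3 each; log2 fold change 4.59, SE 0.11, edgeR adjusted p = 8.51e-08). Opn3, an opsin gene 5.82 kb from Wdr64, rose from 3.33 ± 0.444 to 8.53 ± 0.89 CPM (1.38, SE 0.15, edgeR adjusted p = 0.00031). Tspyl4, 88.7 kb from Col10a1, fell from 20.3 ± 0.891 to 10.1 ± 1.08 CPM (-0.99, SE 0.1, edgeR adjusted p = 0.000211). Near Slc22a4, Pdlim4 rose (0.95, SE 0.17, adjusted p = 0.0051) and the collagen prolyl hydroxylase gene P4ha2 fell (-0.42, SE 0.08, adjusted p = 0.0067). The sixth was Mt1, described beside Mt3. The 33 members themselves lie on 15 chromosomes, with 5 on chromosome 1 and 4 on chromosome 7. Acp7 and Ccer2, both on chromosome 7, are 125 kb apart.

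**Figure D4:**
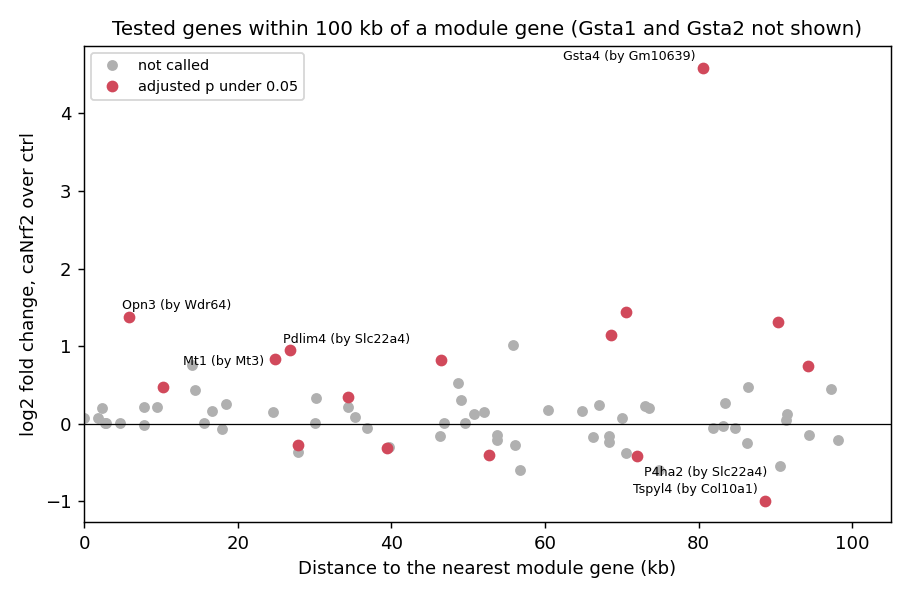
Log2 fold change of caNrf2 over ctrl (y axis) of the 74 tested genes within 100 kb of a module gene, without Gsta1 and Gsta2, which were set aside by symbol, against the distance to it (x axis, kb); red points have an edgeR adjusted p below 0.05, and the 6 of smallest adjusted p are named with the module gene beside them. Of the points shown, Gsta4 stands apart at 4.59, and the others lie between -0.99 and 1.44.

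Because many members are known from other tissues, markers of other cell types were read in the same libraries. Of 15 neuron markers outside the module, 8 were below 1 CPM in all 6 libraries, among them Rbfox3, Snap25, Elavl3 and Elavl4. Of the 8 tested, 2 were called higher and 1 lower. Uchl1, a neuronal ubiquitin hydrolase gene, rose from 5.77 ± 0.482 to 72.9 ± 7.86 CPM (SD, n = 3 each; log2 fold change 3.68, SE 0.11, edgeR adjusted p = 1.7e-07) and made up most of the list's summed level of 97.5 to 109 CPM in caNrf2, against 38.3 to 46.7 CPM in ctrl. Stmn2 rose from 1.18 ± 0.341 to 3.11 ± 0.55 CPM (1.43, SE 0.25, edgeR adjusted p = 0.00458), and Map2, the dendritic microtubule protein, fell from 9.54 ± 1.39 to 2.99 ± 0.35 CPM (-1.65, SE 0.15, edgeR adjusted p = 0.000116).

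Leukocyte markers were higher in caNrf2. All 9 were tested, none was at 0, and all 9 were called higher in caNrf2, with a median log2 fold change of 1.81; with 1 library left out 6 to 9 were called, 6 without caNrf2 replicate 2. Their summed level was 19.6, 55.3 and 53 CPM in ctrl replicates 1 to 3 and 149, 160 and 134 CPM in caNrf2. Lyz2, the macrophage lysozyme gene, was the most abundant, at 26.5 ± 13.8 in ctrl against 97 ± 9.51 CPM in caNrf2 (SD, n = 3 each; log2 fold change 1.88, SE 0.37, edgeR adjusted p = 0.00735). In ctrl replicate 1, where the leukocyte sum was lowest, the module summed to 9.74 CPM, against 9.03 and 9.62 CPM in ctrl replicates 2 and 3. In caNrf2 replicates 1 to 3 the module summed to 440, 458 and 379 CPM, the same order of libraries as for the leukocyte sum. The list of NRF2 targets had this order too, at 5923, 6178 and 5553 CPM. Other lists did not, such as neuron (109, 107 and 97.5 CPM) and skeletal muscle markers (230, 309 and 321 CPM). The part of leukocytes in the caNrf2 values of the module was not tested.

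Fibroblast markers dominated every library, with 37566 to 52944 CPM in ctrl and 26875 to 32138 CPM in caNrf2. Of these 8 genes, 2 were called higher and 3 lower, and the most abundant, Col1a1, fell from 17672 ± 3076 to 11896 ± 819 CPM (log2 fold change -0.56, SE 0.13, edgeR adjusted p = 0.0192). That call was lost in 5 of the 6 fits that left out a library, all but the fit without ctrl replicate 1 (adjusted p 0.0513 to 0.0788). Melanocyte, Schwann cell and endothelial lists gave 1 of 6, 2 of 5 and 1 of 4 tested genes called higher and 0 lower, and summed to at most 29.3 CPM in any library. With 1 library left out these counts were 0 to 1, 1 to 2 and 0 to 1; the melanocyte gene Kit was lost without caNrf2 replicate 2 or 3 or ctrl replicate 1 or 2, and the endothelial gene Cdh5 without caNrf2 replicate 2.

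**Figure D5:**
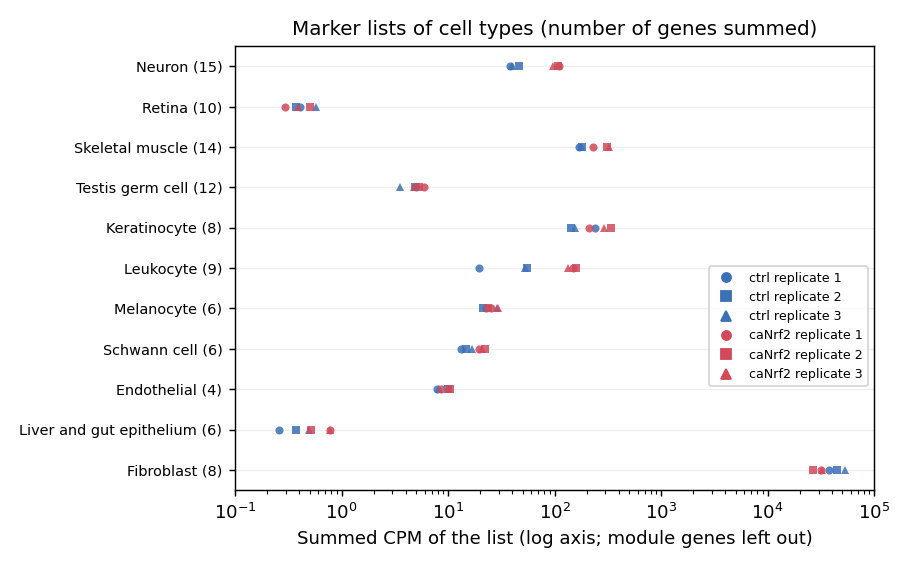
Summed CPM of each cell type marker list in each library (x axis, logarithmic), with the number of genes summed in brackets and module genes left out; blue symbols are ctrl and red symbols caNrf2 libraries. The retina, testis, and liver and gut lists stay below 6 CPM in both groups. The leukocyte, neuron, skeletal muscle, Schwann cell, and liver and gut lists are higher in all 3 caNrf2 libraries than in any ctrl library, the last at 0.512 to 0.783 against 0.259 to 0.497 CPM; the fibroblast list is lower in all 3.

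The limits of 1 and 3 CPM set the borders of the module. Just inside the caNrf2 limit lay Bmp2, with a lowest caNrf2 value of 3.1 CPM, Pglyrp3 (3.24), Cyp1a1 (3.25) and Fgf1 (3.45). Just outside it lay Plb1 (2.92), Tlr7 (2.89), Acot4 (2.86) and Srgn (2.85). Nearest to the ctrl limit, by their highest ctrl value in CPM, were Map7d2 (0.893), Lix1 (0.859), Cyp1a1 (0.777) and Bmp2 (0.762) on the inside and Tmem178 (1.01), Snhg11 (1.03), Dmtn (1.04) and Fermt3 (1.06) on the outside. Tmem178 reached 24.3, 24.3 and 18.9 CPM in caNrf2, a level like that of Lix1, and missed the module by 1 ctrl library.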

How the data were processed

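RNA-seq was available for 6 libraries, 3 ctrl and 3 caNrf2, grouped and numbered by their titles. The submitters' processing notes name CASAVA 1.8, RSEM 1.2.21 and GRCm38; for the aligner, annotation release and strand setting the sources used here give nothing. The deposited tables hold, per the file headers, expected counts of each transcript, which RSEM divides among transcripts that share reads, with TPM scaled by the authors to transcript length. The deposited FPKM values, also per transcript, were not used.

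Expected counts of 104129 transcripts were summed per gene ID and scaled by the library total (CPM); TPM was summed likewise. Symbols and types came from GENCODE M21 tables (42462 of 43629 IDs matched), and transcript starts and exons from the deposited tables. Ratios use counts pooled over a group, with an exact 95% interval. For genes outside the module, summed counts were rounded and tested in R 4.3.3 by edgeR 4.0.16, with filterByExpr (minimum count 10, minimum total 15), TMM scaling, a quasi-likelihood F test, two-sided, Benjamini-Hochberg over 15341 genes, threshold 0.05. All 33 members passed the filter, and their own p-values are not reported, because they were chosen on the same contrast. The test was also run on counts simulated from the model fitted to these data, with changes added only to the more abundant genes. That run does not show how often changed genes of low count are called. The p-values set the difference between the groups against the spread between these libraries within each group.

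The members and all lists were chosen with earlier results of these data known. Named genes are the 8 leading members, the 16 others of highest TPM, those nearest the limits, every tested family gene, the 6 called neighbours of smallest adjusted p and at most 4 genes per marker list; values of Glp2r, Kcnh1 and the other low members, and of relatives outside the lists, were picked after they were seen. Alternatives were other count estimates, scalings, limits, filters, distances, motifs, DESeq2 1.42.0, a replicate block and leaving out each library. A comparison of closest paralogues by protein sequence and a wider motif window were planned and not run. Some genes of the fixed lists are counted in the totals and not reported here by name.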

Additional observations from a re-analysis of the deposited data

How the results depend on the processing

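The number of members, 33, became 20 with a caNrf2 limit of 5 CPM, 65 with 2 CPM and 0 under the reverse rule (added after seeing the data); it was 24 with a ctrl limit of 0.5 CPM, 39 on TPM, of which 25 were among the 33, 34 with TMM-scaled libraries, 33 with posterior mean counts, and 33 to 38 with 1 library left out. Genes called, 3302, were 3000 to 3627 under other scalings, filters and DESeq2, and 2206 to 2898 with 1 library left out. The 16 called neighbours became 8 within 50 kb, 29 within 250 kb (17.3% of 168 tested) and 8 to 13 with 1 library left out, being 8 without caNrf2 replicate 2 and 10 without ctrl replicate 1 or ctrl replicate 3; they were 13 to 18 otherwise, being 18 with Gsta1 and Gsta2 counted (added after seeing the data). The 7 called family genes were 7 to 9 throughout. The cause of these shifts was not tested, apart from the limits and distances, which change which genes are counted. The comparison of closest paralogues (no protein table used here) and the 5 kb motif window (no genome used here) were not run.

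Replicate numbers are shared by both groups. Deviations of same-numbered libraries correlated with r = 0.214, 0.209 and 0.0953, against -0.242 to 0.112 for pairs of different number. Of the 6 libraries, 5 correlated best with their own number. Whether a number marks a shared batch or a pairing is not stated and was not tested. With the replicate number as a block, 3218 genes, 15 neighbours and 7 family genes were called. Depth limits the ratios of members with few ctrl counts: 5 had at most 3 counts over the ctrl group.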
